A study of Homo sapiens with 6 samples.

Results

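Nonsense-mediated decay transcripts were taken as every row of the deposited transcript table whose annotated transcript biotype is nonsense_mediated_decay. There were 15283 of them among 206601 transcripts with a gene, and they belonged to 7115 of 58735 genes, called parent genes here. Each was described by its counts and by its share of the parent gene, the percentage of the gene's counts assigned to it. The counts come from RNA-seq of cells labelled CCRF-SB, a human B cell acute lymphoblastic leukaemia line of lymphoblast-like type from peripheral blood, with wild-type genotype in the labels. In 3 libraries, named siControl, the cells had received the empty lentivirus, and in the 3 named siANXA1 a lentivirus carrying a silencing sequence against ANXA1, the gene of the phospholipid-binding protein annexin A1. Both groups are labelled day 5, grew in the same serum-supplemented medium and were read from total RNA with a TruSeq kit, and puromycin selection is stated for the silenced cells. No clone or culture is named for a replicate, so the p-values reflect library-to-library spread alone, which may be technical, and fewer expressing cells cannot be told apart from less RNA per cell.

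Nonsense-mediated decay is the surveillance pathway that destroys mRNAs whose reading frame ends too early. After splicing, an exon junction complex marks each junction. A ribosome that stops well before the last junction leaves such a complex in place, and the helicase UPF1, its partners UPF2 and UPF3B, the kinase SMG1 and the factors SMG5 and SMG6 then bring about cleavage, deadenylation and decapping of the message. Some splicing factors use this route on themselves: SR proteins, for one, promote inclusion of so-called poison exons, which carry an in-frame stop, in their own pre-mRNAs, and so limit their own amount. The biotype is an annotation made from the position of the stop codon, not a measurement of decay.

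In GENCODE 29 on GRCh38, 15270 of the 15283 members had an annotated stop codon, and in 15119 of these (99.01%) it lay more than 50 bases before the last exon junction. The median distance from stop to last junction was 318 bases, with quartiles of 161 and 695.75, and a median of 3 junctions followed the stop. Among multi-exon protein coding transcripts 1.24% met the same criterion, and their median stop lay 131 bases after the last junction (-131 on the same scale). Members had a median length of 1058 bases, 7 exons and a coding region of 282 bases. For 13340 members (87.4%) no protein coding transcript of the gene used the same stop. Another 1494 (9.78%) shared their stop with a protein coding transcript of the gene, and 436 (2.86%) lay in genes without a protein coding transcript that had a stop. TGA closed 58.9% of members, TAA 21.8% and TAG 19.3%, against 50.3%, 28.2% and 21.6% of protein coding transcripts.

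The ends of the reading frames that the main results turn on are printed from the GENCODE 29 transcripts, as 60 transcript bases 5′ to 3′ with the stop codon in capitals. The first 3 belong to transcripts whose share of the gene separated the groups completely. The next is the end of the frame in the CNOT1 protein coding transcript that was almost without counts in siControl and held 33.2% to 76.4% of the gene in siANXA1. The last 3 show frames closed in SRSF3 and SRSF7, which encode SR proteins, and in HNRNPA1, where the stop is shared with the coding transcript.
CNOT1 ENST00000567188: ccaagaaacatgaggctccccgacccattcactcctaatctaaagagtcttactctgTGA
SCAP ENST00000320017: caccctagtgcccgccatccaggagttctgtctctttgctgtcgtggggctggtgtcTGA
PAQR3 ENST00000515853: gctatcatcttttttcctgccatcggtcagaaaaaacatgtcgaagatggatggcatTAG
CNOT1 ENST00000569240: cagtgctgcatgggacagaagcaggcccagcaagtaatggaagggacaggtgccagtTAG
SRSF3 ENST00000477442: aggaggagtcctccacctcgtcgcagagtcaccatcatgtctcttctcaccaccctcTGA
SRSF7 ENST00000443213: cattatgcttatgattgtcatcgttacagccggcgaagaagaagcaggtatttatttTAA
HNRNPA1 ENST00000547566: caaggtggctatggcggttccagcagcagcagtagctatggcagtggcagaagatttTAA
The CNOT1 stop lies at chr16:58528091-58528093 on the minus strand, 13 bases into exon 45 of 50, so 45 of the 60 printed bases come from earlier exons and the frame ends almost at once after entering that exon. It stands 767 bases and 5 junctions before the last junction. The SCAP stop (chr3:47420992-47420994, minus strand) is in exon 6 of 18 with 12 junctions after it. The PAQR3 stop (chr4:78930244-78930246, minus strand) is in exon 2 of 5 with 3 junctions after it. In HNRNPA1 the stop at chr12:54284311-54284313 is the normal end of the protein, and the printed 60 bases are identical in the coding transcript ENST00000340913. There the stop lies 4 bases before the last junction, and in ENST00000547566 it lies 75 bases before it with 2 junctions to follow.

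Libraries held between 21333951 counts with a gene in siANXA1 replicate 2 and 44148505 in siANXA1 replicate 1. ANXA1, which has no nonsense-mediated decay transcript in the table, measured 3709 ± 87.6 CPM (the usual count relative to the library's total with a gene) in siControl and 1681 ± 93.9 in siANXA1 (mean ± SD, n = 3). Its log2 fold change was -1.14 with an edgeR quasi-likelihood adjusted p of 0.0571. It passed under 4 of 12 alternative settings, among them DESeq2 (adjusted p 1.4e-17), with a fold change between -1.17 and -1.11. On principal component 1 of the genes (42.6% of the variance) siControl replicates 1 and 2 and siANXA1 replicate 2 lay on one side and the other 3 libraries on the other side. The sides were set from the same gene values, so the separation of genes along them is partly built in. Of 12 B cell markers 3 exceeded 1 CPM, with VPREB1 and IGLL1 at 0 and a summed level of 11.05 to 16.3 CPM in siControl and 7.29 to 11.6 in siANXA1, which goes against the B cell label. Of 15 erythroid markers 14 exceeded 1 CPM, and their summed level was 2246 to 3691 CPM in siControl and 6108 to 7159 in siANXA1. T cell markers summed to 11.02 to 39.6 and 15.2 to 24.6 CPM, with CD8A and CD2 at 0, and myeloid markers to 76.8 to 119 and 90.3 to 115 CPM. The part of these differences in the results below was not tested.

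Counts in nonsense-mediated decay transcripts made up a small fraction in both groups. The 3 siControl libraries had 2.65%, 2.70% and 2.53% of their counts assigned to genes there, in replicate order, and the siANXA1 libraries 2.54%, 2.31% and 2.60%. The groups overlapped, and the means of 2.62% ± 0.0869 and 2.48% ± 0.151 (SD, n = 3) differed by -0.142 points (exact two-sided permutation p = 0.3, where 3 against 3 libraries cannot go below 0.1). Per transcript length, as a share of TPM, counts per base of transcript scaled to a fixed total, the same transcripts held 2.74% ± 0.0136 in siControl and 2.64% ± 0.0644 in siANXA1, and on this scale the groups did not overlap (exact permutation p = 0.1, the smallest possible). Retained intron transcripts, a class that keeps intron sequence, held 6.55% ± 0.193 and 6.97% ± 0.349 of the counts (exact permutation p = 0.2). Over the 17 library measures tested this way, no p was below 0.638 after Benjamini-Hochberg adjustment.

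With each parent gene weighted equally the groups overlapped too. The median share over 4703 parent genes with at least 50 counts in every library was 1.37%, 1.31% and 1.03% in siControl and 1.27%, 0.811% and 1.25% in siANXA1 (exact permutation p = 0.5). The shallowest library, siANXA1 replicate 2, was the lowest on both measures, and without it the difference of the medians went from -0.125 to 0.0257 points. After thinning all libraries to its depth the median shares differed by -0.0999 points. In numbers of transcripts, between 5667 and 7197 members had a count in a library.

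**Figure D1:**
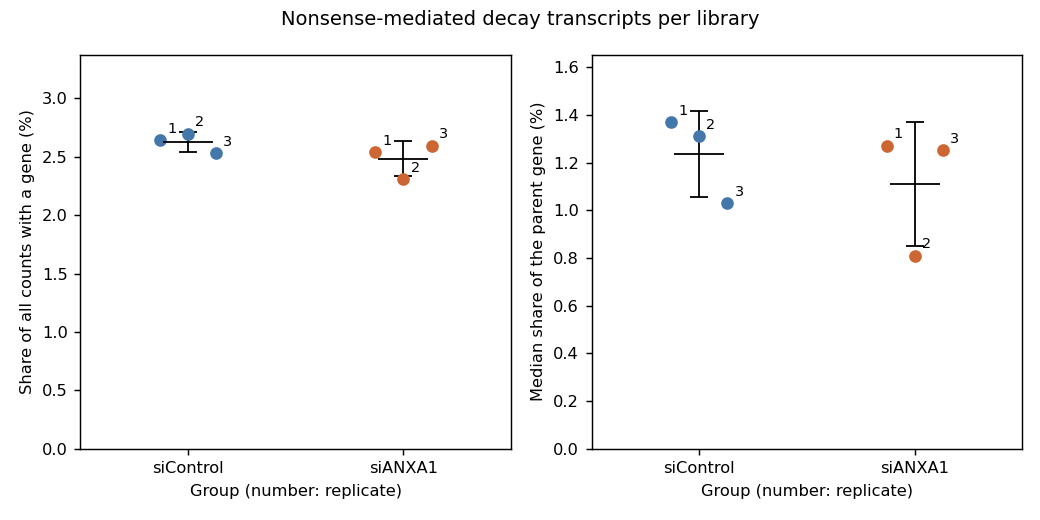
Left, the percentage of counts with a gene that lay in nonsense-mediated decay transcripts, and right, the median percentage of a parent gene's counts in them over 4703 genes, with 1 point per library numbered by replicate and a black line with bars for mean and SD (n = 3). The groups overlap in both panels, and siANXA1 replicate 2 is lowest in both, at 2.31% and 0.811%.

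Most parent genes put few counts into these transcripts, and a minority put most of them there. Of the 4703 genes, 459 had no count in such a transcript, 1856 had a mean share under 1% (the 459 included), 1658 lay between 1% and 10%, 1031 between 10% and 50%, and 158 above 50%. The median of the mean shares was 2.06%, with quartiles of 0.279% and 10.2%. Among 3794 parent genes with a mean of 500 counts or more, 107 had a mean share over 50% and 40 exceeded 50% in every library.

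**Figure D2:**
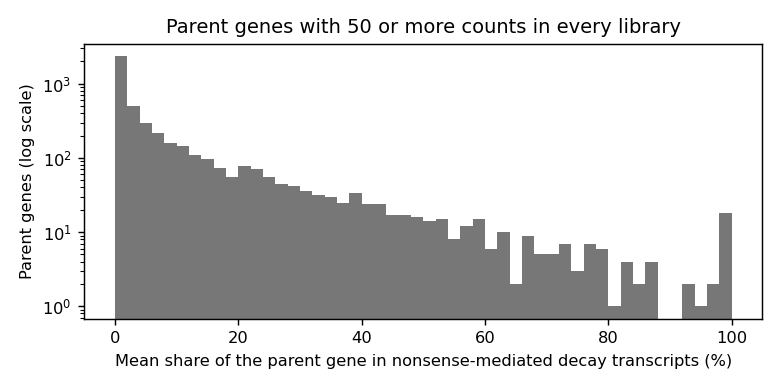
Number of parent genes (log scale) by the mean percentage of their counts in nonsense-mediated decay transcripts over the 6 libraries, in bins of 2 points, for the 4703 genes with 50 or more counts in every library. The distribution falls steeply from 0, with 158 genes above 50%, and a small group near 100%.

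The genes with the highest shares included readthrough and duplicated loci, for which the counts of neighbouring or identical genes could be divided arbitrarily. SENP3-EIF4A1, a readthrough of the SENP3 protease gene into the EIF4A1 helicase gene, AL133352.1, AC068831.7 and SEPT5-GP1BB stood at 100% because no other biotype is annotated for them. HIST2H4A and HIST2H4B, near-identical genes of histone H4, followed, HIST2H4A with 99.9% and HIST2H4B between 97.4% and 99.7% in each library, and AC118553.2 had 93.3%. TRANK1 had a mean share of 98.3%, EEF1AKMT2, a lysine methyltransferase of the elongation factor eEF1A, 95.9%, and SNAPC3, a subunit of the complex that starts small nuclear RNA transcription, 93.5%. In these last 3 genes other biotypes are annotated, and the share in single libraries lay between 95.6% and 99.4% for TRANK1, 94.7% and 97.2% for EEF1AKMT2, and 86.5% and 99.4% for SNAPC3.

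Few members separated siANXA1 from siControl. Of the 15283, 9956 had a count in any library and 4367 passed the filter on low counts and entered the edgeR quasi-likelihood test of all 58702 transcripts. That test called 1 transcript at a Benjamini-Hochberg adjusted p under 0.05, 0.0017% of all tested, and it was a member, the CNOT1 transcript ENST00000567188, which is 0.0229% of the 4367. At an unadjusted p under 0.05 there were 240 members, which is 5.5% against 4.69% of all transcripts. Of these, 143 were lower in siANXA1 (3.27%, against 2.61% of all) and 97 higher (2.22%, against 2.08%). The CPM of the groups did not overlap for 542 members, or 12.4% against 12.6% of all transcripts, with 294 higher in siANXA1 (6.73% against 7.63%) and 248 lower (5.68% against 4.96%). DESeq2, the other count model run, called 85 members, 2.01% of 4234, where it called 1.17% of all transcripts. The median log2 fold change was -0.04 over the tested members (quartiles -0.68 and 0.53, 2114 positive and 2253 negative) and 0.00 over all transcripts, -0.04 over protein coding and 0.10 over retained intron transcripts.

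CNOT1 is the scaffold subunit of CCR4-NOT, the main complex that shortens poly(A) tails, and its transcript ENST00000567188 fell in siANXA1 from the largest part of the gene to almost nothing. The transcript has 7830 bases and 50 exons at chr16:58520706-58629832 on the minus strand. It had 14211, 14711 and 12561 counts in the siControl libraries, in replicate order, and 8, 2 and 6 in siANXA1, or 347, 370 and 361 CPM against 0.181, 0.0937 and 0.162. All siControl libraries were high and all siANXA1 libraries near 0, with no intermediate value. The log2 fold change was -11.28 ± 0.39 (approximate SE, derived from the test statistic), with an edgeR adjusted p of 0.00642. Its share of CNOT1 was 72.1%, 67.2% and 68.3% in siControl and 0.0460%, 0.0201% and 0.0358% in siANXA1, and a limma test of the log2 odds of each transcript's share over 48671 transcripts gave an adjusted p of 0.00859. The share call was lost without siControl replicate 1 (limma adjusted p 0.0904) or 2 (0.0644) or siANXA1 replicate 3 (0.0549). The call of the level did not survive leaving out siControl replicate 1, 2 or 3 (edgeR adjusted p 0.0667, 0.0627 and 0.134) or siANXA1 replicate 1 or 3 (0.151 and 0.184), although the fold change stayed between -11.47 and -11.05.

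The total of the gene did not pass its test. CNOT1 measured 520 ± 36.4 CPM in siControl and 437 ± 38.2 in siANXA1 (log2 fold change -0.26, edgeR adjusted p 0.645), with every siANXA1 library below every siControl library. The protein coding transcript ENST00000569240 was high in siANXA1, with 13271, 3297 and 12629 counts against 1, 36 and 31 in siControl. That transcript held 76.4%, 33.2% and 75.4% of the gene in siANXA1, siANXA1 replicate 2 being the lowest, and its own test gave an edgeR adjusted p of 0.462. The 2 structures differ by exon 45 of ENST00000567188, 183 bases at chr16:58527923-58528105, which holds the stop and is absent from ENST00000569240, and by the outer limits of the first and last exons. Which of the reads fell in this exon is not given by transcript counts.

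SCAP, which escorts the sterol-sensing transcription factors SREBP from the endoplasmic reticulum to the Golgi, showed the opposite direction. Its transcript ENST00000320017 (3430 bases, chr3:47413713-47475937, minus strand) had 0 counts in each siControl library and 2713, 1543 and 3239 counts in siANXA1. All siANXA1 libraries were above all siControl libraries, and the level was at least 2838-fold higher against a floor of 3 counts over the siControl group. In siANXA1 it held 48.7%, 50.2% and 60.4% of the gene. The share test called it (limma adjusted p 0.00859), and the edgeR test of its level did not (adjusted p 0.153). The share call was lost without siControl replicate 1 (limma adjusted p 0.0804) or 2 (0.0562) and without siANXA1 replicate 1 (0.103), 2 (0.102) or 3 (0.162). The transcript lacks 5 consecutive exons, the fourth to the eighth of the 23 exons of the coding transcript ENST00000265565. That coding transcript had 1706, 2487 and 1575 counts in siControl and 1459, 1015 and 1561 in siANXA1, and SCAP in total 90.1 ± 6.08 and 138 ± 10.5 CPM (edgeR adjusted p 0.574), with every siANXA1 library above every siControl library in the gene total.

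These 2 members are the whole of the share test's calls among 4267 members tested, 0.0469% against 0.0144% of all 48671 transcripts (7 called). At an unadjusted p under 0.05 the limma test gave 5.34% of members and 4.62% of all, and the shares did not overlap for 10.5% of members and 11.1% of all. Summed over all members of a parent gene, the same model called 1 of 2832 genes, 0.0353% against 0.0109% of the 18316 pairs of gene and biotype tested. At an unadjusted p under 0.05 these shares were 6.57% and 5.34%. The called gene was CNOT1, with a share of 72.2%, 67.2% and 68.4% in siControl and 0.0978%, 0.161% and 0.113% in siANXA1 (limma adjusted p 0.00218). Without siControl replicate 1 or 2 the adjusted p of this sum was 0.0770 or 0.0665. The median difference in log2 odds was -0.04 for nonsense-mediated decay, 0.16 for retained intron and -0.12 for protein coding shares.

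HNRNPU and PAQR3 separated the groups as completely without passing the edgeR test of the level or the limma test of the share, while DESeq2 called the level of both (adjusted p 3.9e-32 and 2.1e-20). HNRNPU encodes a nuclear matrix protein that binds chromatin and RNA. Its transcript ENST00000640056 (2045 bases, chr1:244854206-244863653, minus strand) had 17459, 13926 and 19315 counts in siControl and 0 in every siANXA1 library, at least 15177-fold lower against 3 counts over the siANXA1 group, with an edgeR adjusted p of 0.150 and a limma share adjusted p of 0.0797. The share passed with a pseudocount of 5 (limma adjusted p 0.0176), with a gene minimum of 500 counts (0.0479), without siANXA1 replicate 1 (0.0391) and in diffSpliceDGE of edgeR (2.9e-06). It held 54.9%, 43.3% and 46.5% of the gene in siControl. The retained intron transcript ENST00000366525 of HNRNPU had 63, 108 and 99 counts in siControl and 12973, 3811 and 19626 in siANXA1. Again both groups were uniform in direction while the gene total, 927 ± 233 and 1258 ± 260 CPM, did not pass its test (edgeR adjusted p 0.677).

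PAQR3 encodes a Golgi membrane protein. Its transcript ENST00000515853 (3370 bases, chr4:78917942-78939224, minus strand) had 1, 1 and 2 counts in siControl and 1900, 1007 and 623 in siANXA1 (edgeR adjusted p 0.153, limma share adjusted p 0.144). Its share was at most 0.319% in siControl and 46.3%, 64.4% and 36.6% in siANXA1. It lacks the 163-base second exon of the coding transcript ENST00000512733. The gene itself varied widely among the controls, with a mean of 43.3 ± 45.5 CPM, against 70.7 ± 23.6 in siANXA1.

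**Figure D3:**
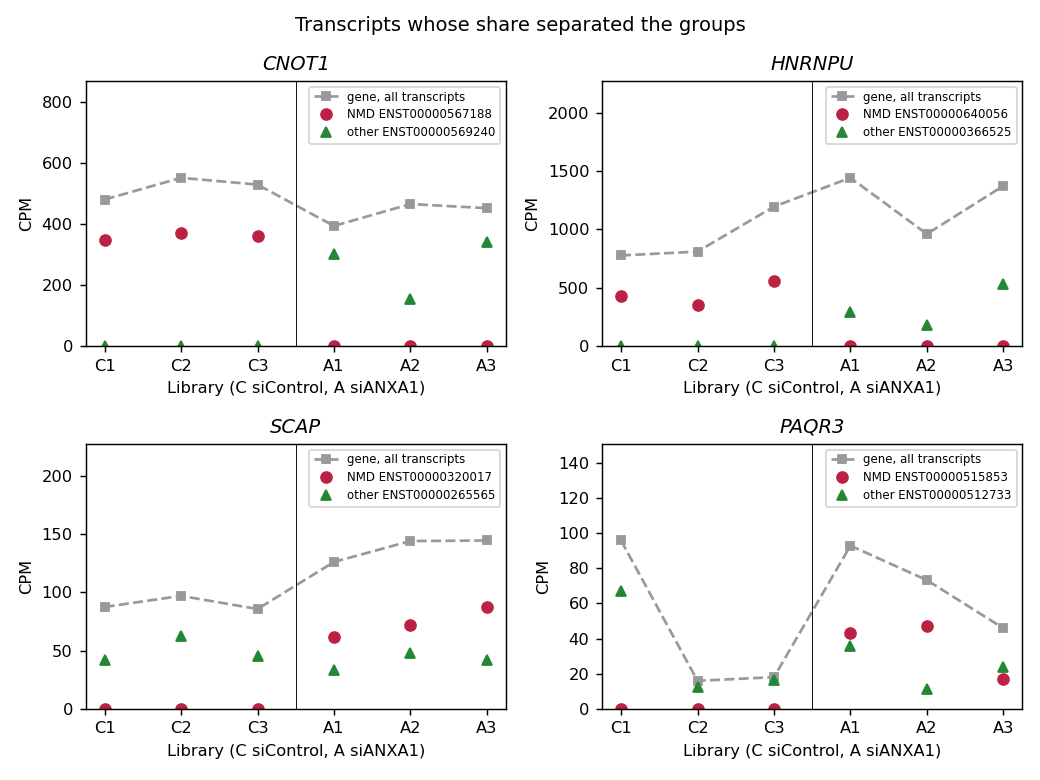
CPM in siControl replicates 1 to 3 (C1 to C3) and siANXA1 replicates 1 to 3 (A1 to A3) for 4 genes: the nonsense-mediated decay transcript (red circles), the other transcript described in the text (green triangles) and the sum of all transcripts of the gene (grey squares). The red circles lie near 0 in all siANXA1 libraries for CNOT1 and HNRNPU and in all siControl libraries for SCAP and PAQR3, while no gene total does so.

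Other members with groups that did not overlap and small unadjusted p had partial differences, except CCDC25, which was without counts in siControl. None passed the edgeR or the limma share test, and DESeq2 called the level of each of the 6 that follow, with adjusted p from 3.6e-09 for CCDC25 to 0.0179 for DHDDS. The 6 were picked by small p and lack of overlap in these same libraries, so the DESeq2 calls are not independent support. DHDDS, whose product extends the dolichol chain used in protein glycosylation, had 1117, 1107 and 1546 counts of ENST00000434391 in siControl and 297, 144 and 497 in siANXA1. This transcript fills most of the gene in siControl, with shares of 67.8%, 69.0% and 74.5%, against 9.84%, 12.2% and 18.5% in siANXA1 (edgeR adjusted p 0.712, limma share adjusted p 0.148). Its stop is in a 166-base version of exon 4 whose boundary differs from that of the coding transcript ENST00000360009.

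STOML2, a stomatin-like protein of the inner mitochondrial membrane, had 627, 649 and 639 counts of ENST00000488050 in siControl and 88, 14 and 101 in siANXA1 (edgeR adjusted p 0.540), or between 10.996% and 11.6% of the gene against at most 1.46%. The siControl values were nearly equal and all above the siANXA1 values. GAS2L3, which links actin and microtubules, had 712, 738 and 658 counts of ENST00000552854 against 291, 135 and 188 (log2 fold change -1.69, edgeR adjusted p 0.527). The GAS2L3 stop is shared with the coding transcript, and its share was 64.7% to 77.6% in siControl and 24.6% to 59.0% in siANXA1.

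In the other direction, OPA1, the GTPase that fuses inner mitochondrial membranes, had 5, 8 and 20 counts of ENST00000644959 in siControl and 237, 216 and 512 in siANXA1 (log2 fold change 4.92, edgeR adjusted p 0.471), still only 1.74% to 4.66% of the gene. DBF4B, an activator of the replication kinase CDC7, had 57, 53 and 36 counts of ENST00000526924 against 627, 105 and 717 (log2 fold change 3.29, edgeR adjusted p 0.540). CCDC25 had 0 counts of ENST00000520202 in siControl and 1253, 114 and 277 in siANXA1, at least 529-fold higher against 3 counts over the siControl group (edgeR adjusted p 0.540). The siANXA1 values of these last 2 were uneven, siANXA1 replicate 2 being the lowest each time. Among gene sums, chosen after their values were seen, KMT2C, a histone methyltransferase, had a share of 8.63%, 4.90% and 11.7% in siControl and 0 in siANXA1, and INTS3, of the Integrator complex, 12.3%, 4.52% and 13.2% against 0 (limma adjusted p 0.129 and 0.138).

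The most abundant members, by counts and not per length, came mostly from widely expressed genes and often switched between libraries of the same group. The 12 highest in mean CPM held 12.98%, 12.3% and 16.0% of all counts in nonsense-mediated decay transcripts in siControl and 5.79%, 11.98% and 11.6% in siANXA1, groups that did not overlap (exact permutation p = 0.1). They were 2 transcripts of RPLP0, a protein of the ribosomal stalk, and 1 each of ATP5F1A, the alpha subunit of mitochondrial ATP synthase, VIM (vimentin), HNRNPU, SLC6A6, a taurine transporter, PPIA (cyclophilin A), HNRNPA1, RPL11, a protein of the large ribosomal subunit, MPP1, a membrane protein of red cells, CNOT1 and SENP3-EIF4A1. None but CNOT1 was called by edgeR, with adjusted p between 0.150 for HNRNPU and 0.998 for the others. CNOT1 and HNRNPU entered the 12 with almost all their counts in siControl. The separation of the groups by the summed 12 is therefore not independent of these 2, and the sum without them was not tested.

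RPL11 shows how far single libraries differed. Its transcript ENST00000467075 had 117, 18094 and 15972 counts in siControl and 511, 2165 and 3774 in siANXA1, and the coding transcript ENST00000374550 had 28803, 231 and 111 in siControl and 30050, 12581 and 16815 in siANXA1. siControl replicate 1 thus resembled the siANXA1 libraries and not the other siControl libraries. The gene was level, at 1071 ± 91.2 and 1040 ± 125 CPM. In MPP1 the share of ENST00000439370 was 3.23%, 76.0% and 72.8% in siControl and 8.82%, 1.99% and 74.3% in siANXA1, high and low libraries occurring in both groups.

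ATP5F1A put 76.1%, 74.1% and 83.6% of its counts into ENST00000590156 in siControl and 10.2%, 81.8% and 81.9% in siANXA1, with siANXA1 replicate 1 standing apart. SLC6A6 put 93.9%, 92.4% and 30.4% into ENST00000649500 in siControl and 62.2%, 72.1% and 94.3% in siANXA1. RPLP0 ENST00000551258 had a share of 3.56%, 4.20% and 47.6% in siControl and 49.4%, 46.1% and 55.2% in siANXA1, and RPLP0 ENST00000547173 of 43.1%, 0.682% and 8.94% and then 0, 5.32% and 3.34%. The first of these was high in 4 libraries and low in siControl replicates 1 and 2, and the other was high in siControl replicate 1 alone. VIM, PPIA and HNRNPA1 were steadier, with shares of 6.61% to 18.0%, 7.08% to 16.1% and 3.27% to 12.7%.

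**Figure D4:**
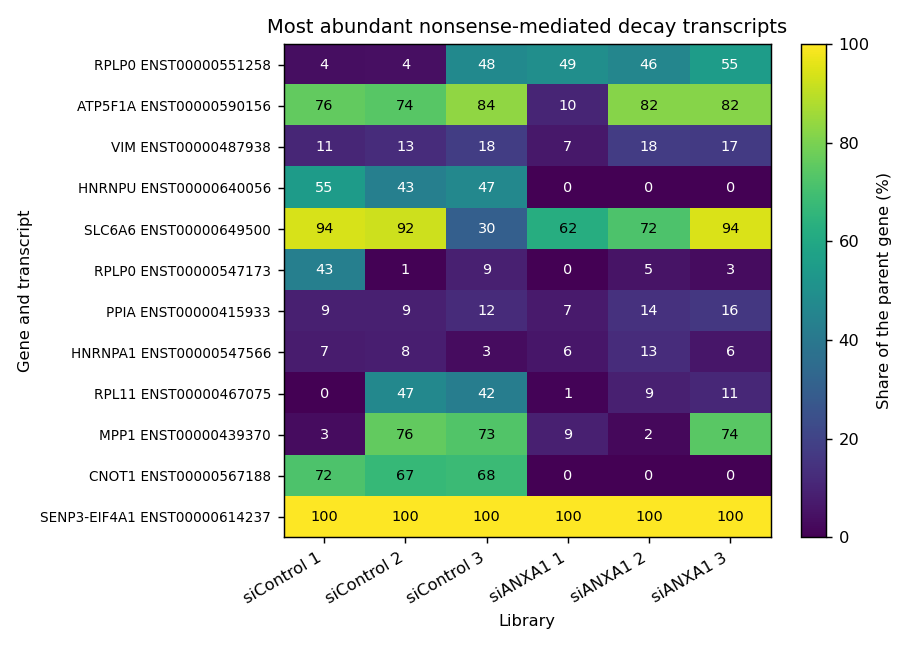
Percentage of the parent gene's counts held by each of the 12 nonsense-mediated decay transcripts with the highest mean CPM (rows, gene and transcript) in each library (columns), also printed in the cells and rounded to whole percent. HNRNPU and CNOT1 split by group, whereas RPL11, MPP1, SLC6A6, ATP5F1A and both RPLP0 transcripts differ between libraries of 1 group.

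Counted over all members with a mean of 5 CPM or more, 203 of 895 (22.7%) held over 20% of their gene in one library and under 1% in another library of the same group, 111 in siControl and 141 in siANXA1. The same was true of 10.3% of 13601 protein coding, 4.13% of 2108 retained intron and 8.47% of 685 processed transcripts. Between the groups, 4 of the 895 members were over 20% in all libraries of one group and under 1% in all of the other (CNOT1, HNRNPU, SCAP and PAQR3), 5 of the protein coding, 1 of the processed and none of the retained intron transcripts. One of the 5 is the CNOT1 coding transcript. The median SD of log2 CPM within a group was 1.03 for members and 0.585 for protein coding transcripts, while that of the parent genes was 0.276. For transcripts with mean shares of 20% to 80% in genes of 500 counts or more, the median of the larger within-group range was 35.5 points for 283 members, 31.4 for protein coding, 22.6 for retained intron and 23.3 for processed transcripts.

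Genes of SR proteins and TRA2, splicing activators known for poison exons, carried a large part of their counts in members, and the groups overlapped in that part. Here and in the lists that follow, called refers to the edgeR test: over 10 lists 0 of 126 tested members were called and 11 had an unadjusted p under 0.05, while DESeq2 called 2, the HNRNPU transcript above and U2AF1 ENST00000464750. All 14 genes of the list are parent genes, with 27 members, of which 21 were tested and 0 called (13 positive and 8 negative log2 fold changes, median 0.26). Members held 18.7%, 16.0% and 18.2% of the list's counts in siControl and 18.9%, 13.2% and 18.5% in siANXA1 (exact permutation p = 0.9). The share ran from 0.00932% in SRSF9 to 92.1% in SRSF1, with 39.9% in SRSF3 and 55.5% in SRSF7, and SRSF12 had no count. At the gene level 0 of 13 tested were called, with 12 positive and 1 negative log2 fold changes and a median of 0.36, where 0.0111% of 17947 genes were called. For this and the gene lists that follow, the signs and median over all genes are not given. A list-wide change can therefore not be read from them. For 9 of these 13 genes the CPM did not overlap between the sides of principal component 1, and for 2 they did not overlap between the groups. Summed over the 10 lists this held for 118 and 25 of 226 tested genes, and the share over all genes is not given. No trait of a list can therefore be read from these counts.

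SRSF1, the founding SR protein, was mostly counted in ENST00000581979, with 2971, 3105 and 1446 counts in siControl and 1892, 1402 and 1378 in siANXA1. This transcript held 81.1% to 94.5% of the gene in single libraries. Of the protein coding transcripts, ENST00000258962 had between 1 and 10 counts a library, ENST00000582730 between 16 and 43, and ENST00000584773 between 0 and 168. ENST00000581979 shares its stop with a coding transcript and has 1 junction after it. It was chosen after its values were seen. In SRSF3, ENST00000477442 had a share of 47.8%, 22.2% and 69.9% in siControl and 36.7%, 17.6% and 42.9% in siANXA1, and replicate 2 was the lowest in each group. In SRSF7, ENST00000443213 had 18.5%, 54.4% and 14.2% in siControl and 64.4%, 53.0% and 54.4% in siANXA1. The shares of SRSF7 overlapped through siControl replicate 2 alone. Its level did not overlap, with 24.2, 81.6 and 32.7 CPM in siControl and 197, 97.0 and 159 in siANXA1 (log2 fold change 1.64 ± 0.56, edgeR adjusted p 0.998). SRSF2 ranged from 2.96% to 26.7% and SRSF6 from 2.82% to 21.9%, and TRA2A and TRA2B stayed between 0.981% and 4.40%.

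**Figure D5:**
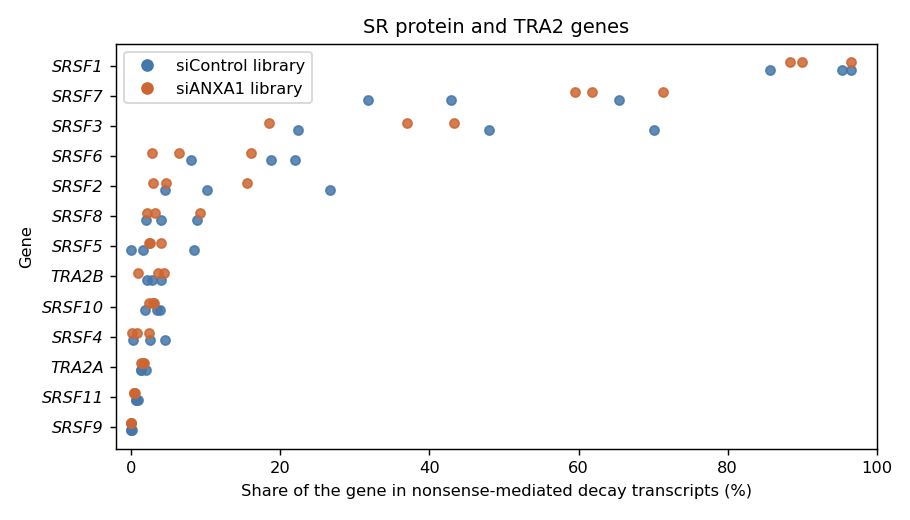
Percentage of each gene's counts in nonsense-mediated decay transcripts for the 13 SR protein and TRA2 genes above 1 CPM, 1 point per library in blue for siControl and orange for siANXA1. SRSF1, SRSF7 and SRSF3 lie highest, with means of 92.1%, 55.5% and 39.9%, and the colours overlap in every gene named in the text.

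The hnRNPs and PTB proteins, which mostly repress splicing, had 14 parent genes of 25 and 18 tested members, of which edgeR called 0 and DESeq2 1, the HNRNPU transcript. Members held 7.21% ± 0.906 of the list's counts in siControl and 3.99% ± 2.27 in siANXA1, without overlap (exact permutation p = 0.1, 0.5 after Benjamini-Hochberg adjustment over 10 lists). Without HNRNPU the values were 3.84% ± 1.03 and 4.20% ± 2.44 (exact permutation p = 0.9), so the separation rested on that gene. PTBP1, whose exon skipping closes its own frame, had a share of 15.8%, 9.63% and 13.9% against 4.06%, 11.1% and 4.97%. HNRNPA2B1 stood between 4.65% and 6.41% in all libraries and HNRNPK between 2.02% and 4.60%. HNRNPD was uneven, with 33.7%, 6.41% and 8.98% against 0.555%, 30.2% and 8.97%.

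Among the core splicing factors 14 of 31 are parent genes and 14 members were tested, 6 positive and 8 negative with 0 called. SNRNP70, of the U1 particle, had a share of 9.41%, 13.5% and 10.2% for ENST00000401730 in siControl and 9.96%, 8.88% and 15.8% in siANXA1. SNRPB, an Sm core protein, had 11.3%, 9.34% and 10.0% for ENST00000474384 in siControl and 9.57%, 0.123% and 10.1% in siANXA1, where siANXA1 replicate 2 stood alone. The kinase gene CLK4 had a share of 30.1% on average, between 20.7% and 43.2%. Of 79 ribosomal protein genes 32 are parents, and members held 2.61% ± 0.650 and 2.39% ± 0.128 of their counts (exact permutation p = 0.7). Of 39 tested members there, 17 were positive and 22 negative and 0 were called.

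The genes that carry out nonsense-mediated decay did not pass the edgeR gene test in any list, and of the 5575 parent genes tested 0 were called by edgeR and 8.5% had an unadjusted p under 0.05, against 7.93% of all genes. Of 16 core factors 13 had positive and 3 negative log2 fold changes, with a median of 0.19. In CPM 8 of them did not overlap between the sides of principal component 1, and 1 did not overlap between the groups. Over all lists together the numbers were 118 and 25 of 226 genes, and the share over all genes is not given. These counts therefore show nothing particular to the core factors. UPF1 measured 212 ± 25.01 CPM in siControl and 263 ± 25.6 in siANXA1 (edgeR adjusted p 0.663). The release factors ETF1 and GSPT1 measured 457 ± 142 and 421 ± 95.4 CPM in siControl and 528 ± 65.9 and 481 ± 17.1 in siANXA1. SMG5 and NBAS, at 160 ± 15.3 and 190.1 ± 35.0 CPM in siControl, had 195 ± 21.4 and 190.4 ± 14.3 in siANXA1. SMG1, the kinase of UPF1, split both groups, with 26.1, 234 and 349 CPM in siControl and 277, 33.8 and 39.9 in siANXA1.

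The factors have such transcripts of their own, 8 in 7 of the 16 genes, with all 8 counted in some library. In DHX34, a helicase of the pathway, ENST00000460681 held 17.2%, 22.6% and 9.28% of the gene in siControl and 16.2%, 16.3% and 9.06% in siANXA1. In ETF1, ENST00000512198 was counted in 1 siControl and 2 siANXA1 libraries and held at most 1.72% of the gene. Of 11 exon junction complex and cap-binding genes 7 had positive log2 fold changes, median 0.19, and NCBP2, the cap-binding subunit, had a share for ENST00000428425 of 4.33% to 11.98% in siControl and 3.54% to 17.8% in siANXA1. ACIN1 ENST00000473758 had 3.13% to 7.48% and 3.10% to 5.28%.

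Of 9 decapping and 5′ to 3′ decay genes 7 were positive, and DDX6, a helicase that represses and decaps mRNAs, had the smallest p, with 169 ± 22.4 and 301 ± 42.7 CPM (log2 fold change 0.84 ± 0.17, edgeR adjusted p 0.574), and was called by DESeq2. XRN1 ENST00000486211 and DCP2 ENST00000512751 held at most 0.675% and 0.201% of their genes.

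Amino acid stress genes, several of which are known targets of the pathway, had 14 negative and 1 positive log2 fold changes among 15 tested genes, with a median of -0.77 and 0 called. None of the 15 separated the groups. However, 14 were higher in each of siControl replicates 1 and 2 and siANXA1 replicate 2 than in each of the other 3 libraries. These sets of libraries are the sides of principal component 1, which were set from the same gene values. The share over all genes is not given. The gene ASNS measured 855, 773 and 127 CPM in siControl and 133, 542 and 129 in siANXA1. The 5 tested members of the list were all negative, median -1.28. ASNS, asparagine synthetase, had 1376, 816 and 263 counts of ENST00000454046 in siControl and 20, 432 and 568 in siANXA1, overlapping groups. SLC3A2, the heavy chain of amino acid transporters, had 117, 1352 and 162 counts of ENST00000541425 in siControl and 145, 172 and 254 in siANXA1, so that siControl replicate 2 alone stood out. Other genes known as targets gave 16 tested members, 6 positive and 10 negative, 0 called. EIF4A2 had a gene share of 38.8%, 53.5% and 58.8% against 23.4%, 40.5% and 13.4%, RBM39 of 29.4%, 14.7% and 27.0% against 21.3%, 22.3% and 27.8%, and RSRC2 of 30.5%, 31.8% and 45.8% against 39.6%, 45.9% and 50.9%.

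Annexin genes held 11 members in 5 of 12 genes, of which 3 were tested, all positive and 0 called. Members held 0.185% ± 0.0715 of annexin counts in siControl and 1.20% ± 1.51 in siANXA1 (exact permutation p = 0.1, 0.5 adjusted over 10 lists). ANXA5 ENST00000506395 had 133, 350 and 298 counts in siControl and 3043, 75 and 152 in siANXA1, so siANXA1 replicate 1 alone was high. Without ANXA5 the list's values were 0.0360% ± 0.00408 and 0.183% ± 0.0848, still without overlap (exact permutation p = 0.1). In both comparisons the list's counts include those of ANXA1, at 3709 CPM in siControl and 1681 in siANXA1. The lower ANXA1 counts shrink this denominator, which raises the share even where no member changes. How much of the separation this makes up was not tested. ANXA2 ENST00000560014 had 54, 35 and 42 counts against 121, 123 and 97, without overlap, from 0.380% to 0.539% of the gene in siControl to 0.852% to 2.04% in siANXA1 (edgeR adjusted p 0.998).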

How the data were processed

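RNA-seq counts of 6 libraries, 3 siControl and 3 siANXA1 by the sample titles, were analysed. The values the authors deposited are estimated counts of each transcript, whole and unnormalized, in 1 annotated table and 1 bare table that agreed in each of 1335690 values. That they are estimates was read from the values. Neither the aligner nor the counter nor the strandedness is given in the sources used here. Per the submitters' processing notes the build is mm10, of mouse, yet all 206601 rows with an Ensembl transcript matched GENCODE 29 on human GRCh38 with the same gene, start and end. A further 16014 rows without a gene stayed out of tests and totals. Reads of overlapping transcripts, readthrough loci and near-identical or antisense genes are divided by the estimate, and a transcript's count is therefore less certain than its gene's.

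Members, lists and the rule for named genes were chosen with earlier results of these data known. The rule took the 12 members with the highest mean CPM, the 10 parent genes with the highest share, every member past a threshold or otherwise the 5 per direction with the smallest p at 5 CPM or more and groups without overlap, and 2 members per list. Genes outside it are marked in the text or are list members given by share.

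Transcript and gene counts were tested with edgeR 4.0.16 (filterByExpr, TMM, robust glmQLFit, glmQLFTest), group as the only term. The SE after ± beside an edgeR log2 fold change is its size divided by the square root of the F statistic. It was not estimated by the fit and is only approximate where a group is near 0 counts. Shares were tested as log2 odds with a pseudocount of 0.5 in limma 3.58.1 (trend, robust), in genes with 50 or more counts in every library and mean shares of 1% to 99%. Within each fit, p-values were adjusted by Benjamini-Hochberg over everything tested in it, with a threshold of 0.05, two-sided. CPM are relative to counts with a gene, without TMM. Differences of single values were tested by exact permutation, one test each for 17 library measures and 10 lists, adjusted within each of these sets. Further permutation tests, of lists without HNRNPU or ANXA5 and of members by kind of stop, were not adjusted. DESeq2 1.42.0, diffSpliceDGE, other filters, pseudocounts and denominators, the replicate block and leaving out each library were alternatives. Thinning and a covariate for the side of principal component 1 were added after seeing the data.

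On simulated data with the real means and spread, the edgeR transcript test (53101 transcripts) found 2 of 100 transcripts at 8-fold and 62 of 100 at 64-fold, with 1 false call. The transcript share test recovered 0 of 90 and 0 of 80 at that spread, with 0 false calls. At a dispersion of 0.05 it recovered 88 of 90 and 81 of 81, with 25 false calls among 40377. The gene share test recovered 18 of 121 with 4 false calls, and the edgeR gene test 58 of 100 at 4-fold and 92 of 100 at 8-fold. Each simulated transcript was drawn independently of the others of its gene, so the rates of the share tests cannot be carried over to the real data.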

Additional observations from a re-analysis of the deposited data

How the results depend on the processing

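DESeq2 called 85 of the members where edgeR called 1, and 258 genes where edgeR called 2. diffSpliceDGE called 41 members by usage where the share test called 2. With the replicate number as a block, 0 members, 0 genes, 0 members by share and 0 parent genes were called. No label says what libraries of the same number share. Deviations of same-numbered libraries from their group means correlated by -0.129, 0.273 and 0.276 over genes. For siControl replicates 2 and 3 the same-numbered library correlated best, and for siControl replicate 1 it was siANXA1 replicate 2 (0.251). Whether the numbers mark a pairing cannot be told from these values. With the side of principal component 1 as a covariate, 0 members were called by level and 0 by share, and 5 genes. With a gene minimum of 500 counts, 2 parent genes were called by share, HNRNPU joining CNOT1 (adjusted p 0.0444). Leaving out each library in turn gave 0 to 1 members called by level, 0 to 7 genes, 0 to 5 members by share and 0 to 4 parent genes. The library share differed by -0.542 points over the counts of parent genes alone and by -0.198 to -0.0561 without single libraries, and the median share by -0.228 to 0.0257. For CNOT1 ENST00000567188 the edgeR adjusted p was 0.951 with the block and 0.0578 with the covariate, and it passed under 5 of 12 alternatives; the SCAP share passed under 5 of 12 and the CNOT1 share under 7 of 12. The cause of these changes was not tested. The biological coefficient of variation was 0.813 over transcripts and 0.423 over genes. For the 10916 members under the filter on low counts, differences were not detectable at this depth.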

Other observations

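Members that share their stop with a protein coding transcript of the gene made up 9.78% of those with a stop but 11.9% ± 1.44 of the counts in nonsense-mediated decay transcripts in siControl and 12.4% ± 2.02 in siANXA1 (SD, n = 3, exact permutation p = 0.6). Their stops lay closer to the last junction, with a median of 225.5 bases and 2 junctions to follow, against 325 bases and 3 junctions for the 13340 whose stop no coding transcript uses. Of the 1494, 482 were tested (32.3%), and of the 13340, 3803 (28.5%). The median log2 fold changes were -0.03 and -0.05, and CPM did not overlap between groups for 13.3% and 12.3%.

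Members that passed the filter on low counts were longer than those that did not, with medians of 1464 and 938 bases and of 8 and 7 exons, and their stops lay 393 and 295 bases before the last junction. Members are spread unevenly over genes: 3630 genes have 1, 2914 have 2 to 4, 571 have 5 or more, and ST3GAL5, a sialyltransferase that makes the ganglioside GM3, has 38. ST3GAL5 was singled out after its annotation was seen.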
